A study of Mus musculus with 4 samples.

Results

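The 10 genes described here are 9 Toll-like receptors (Tlr1, Tlr2, Tlr3, Tlr4, Tlr6, Tlr7, Tlr8, Tlr9 and Tlr13) and Myd88, chosen by their symbols from the 35798 genes named in the count table. All 10 were among the 13822 genes that passed the filter on low counts, and each of them reached the filter's floor of 0.273 CPM (counts relative to a common library size, here before scaling between libraries) in both libraries of both genotypes. The RNA came from Ly49H+ NK cells sorted from the spleens of NSG mice on D3.5 after infection with mouse cytomegalovirus (MCMV). On the day before infection the hosts had received a mixture of NK cells from wild-type donors, marked by the allele CD45.1, and from TNFR2 KO donors, marked by CD45.2. The KO donors lacked TNFR2, a receptor for tumor necrosis factor, in all cells, while host, virus, time and organ were shared by both groups. Spleens of 3 mice were pooled for each library, 2 libraries were made per genotype, and the wild-type and KO libraries of one number were sorted from one pool. Genotype, the CD45 allele and the gate of the sort differed together and cannot be told apart. NSG mice lack mature T, B and NK cells of their own but keep myeloid cells, and like other mice of the NOD background these host cells carry the CD45.1 allele.

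Toll-like receptors are membrane proteins that recognise conserved parts of microbes. TLR1, TLR2, TLR4 and TLR6 sit at the cell surface and bind microbial lipids and lipoproteins, whereas TLR3, TLR7, TLR8, TLR9 and TLR13 work inside endosomes and bind nucleic acids. All of these receptors except TLR3 pass their signal through the adaptor MyD88, which recruits IRAK kinases and, through TRAF6, activates NF-kB and IRF transcription factors. MyD88 also carries the signal of the receptors for IL-1, IL-18 and IL-33, and IL-18 is a major activating cytokine of NK cells. Toll-like receptors are best known from macrophages, monocytes, dendritic cells and B cells.

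Positions are given on GRCm38 (mm10), in which GENCODE release 21 held all 10 genes. Tlr1 (chr5:64924679-64933563) and Tlr6 (chr5:64952031-64960097) lie close together on the minus strand and encode their whole proteins in 1 coding exon each. They are close copies, and 18.3% of the 31-base stretches of Tlr1 transcripts also occurred in Tlr6, as did 16.4% of those of Tlr6 in Tlr1. Their longest coding transcripts held 9 identical runs of at least 31 bases, 873 bases in all, so that a read pair lying within such runs fits both genes alike and is divided between them by estimate. The longest run, 229 bases at chr5:64925537-64925765 in Tlr1 and at chr5:64953828-64954056 in Tlr6 (both minus strand), is shown as the longest stretch in which the reads of both genes look alike, and it holds no capitals since every base is shared.
Tlr1 and Tlr6, shared coding stretch: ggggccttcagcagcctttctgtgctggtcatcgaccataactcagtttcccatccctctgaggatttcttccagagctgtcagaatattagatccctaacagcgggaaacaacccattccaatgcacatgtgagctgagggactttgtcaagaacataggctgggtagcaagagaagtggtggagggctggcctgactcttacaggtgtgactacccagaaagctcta

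None of the 31-base stretches of Tlr2, Tlr7, Tlr8, Tlr9 or Tlr13 occurred in another gene. For Tlr4 the share was 0.667%. Tlr3 (chr8:45395665-45411080, minus strand) shared 6.1% with the antisense gene Gm45542, and Myd88 (chr9:119335934-119341411, minus strand) shared 8.93% with Acaa1a, which overlaps it on the opposite strand. Libraries were strand-specific, but the strand setting of the counting was not stated in the sources at hand, so that counts of Tlr3 and Myd88 are uncertain to that extent. No annotated gene overlaps Tlr2 (chr3:83836272-83841767, minus strand) or Tlr9 (chr9:106222598-106226883, plus strand), and 3 of the receptor genes lie on chromosome X, namely Tlr7 (chrX:167304929-167330558, minus strand), Tlr8 (chrX:167242696-167264329, minus strand) and Tlr13 (chrX:106143204-106160493, plus strand). Tlr4 (chr4:66827584-66930284, plus strand) spans the longest locus of the 10 genes.

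Promoter sequences from RefSeq (GRCm38.p6) covered 8 of the 10 genes, all but Tlr4 and Tlr7. The 250 bases before the start site were searched on both strands for GAGGAAGT (core letters of PU.1 sites), GAAANNGAA (interferon-response letters) and GGGANTTCC (kappaB letters), which occur in 2.44%, 7.13% and 1.43% of 32851 promoter windows of that length. Myd88 held the interferon-response letters once and Tlr2 held the kappaB letters on both strands in an overlapping match, while Tlr9 held none of the 3. A further promoter match of the interferon-response letters was found in Tlr8, 2 overlapping ones were found in 1 of the windows of Tlr6, and the PU.1 letters were found in 1 of the windows of Tlr1. Tlr3 and Tlr13 held none of the letters searched. The windows of the adaptor, of a surface receptor and of the receptor with the largest difference between genotypes are shown 5′ to 3′, with matches in capitals. Their RefSeq start sites can differ from the gene ends given above. The Myd88 window lies inside the gene as positioned there, and the Tlr2 window overlaps its gene. A match of letters is a description of these windows and does not show that a factor binds there.
Myd88, chr9:119340019-119340268, minus strand: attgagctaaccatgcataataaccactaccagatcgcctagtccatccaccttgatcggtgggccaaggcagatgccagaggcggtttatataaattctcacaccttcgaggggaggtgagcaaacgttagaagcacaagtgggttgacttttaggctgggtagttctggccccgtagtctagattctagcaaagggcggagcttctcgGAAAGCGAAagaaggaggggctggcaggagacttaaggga
Tlr2, chr3:83841609-83841858, minus strand: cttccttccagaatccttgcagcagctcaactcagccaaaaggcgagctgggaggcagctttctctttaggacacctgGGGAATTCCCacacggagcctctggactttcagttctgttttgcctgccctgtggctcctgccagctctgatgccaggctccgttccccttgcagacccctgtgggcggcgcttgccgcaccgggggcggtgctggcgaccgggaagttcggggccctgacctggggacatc
Tlr9, chr9:106222348-106222597, plus strand: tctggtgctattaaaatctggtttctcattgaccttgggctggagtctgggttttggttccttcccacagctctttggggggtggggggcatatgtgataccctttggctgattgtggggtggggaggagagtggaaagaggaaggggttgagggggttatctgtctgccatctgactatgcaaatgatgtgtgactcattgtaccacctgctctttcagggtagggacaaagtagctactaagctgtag

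Library totals ran from 32713256 to 39543650 counts, of which the 9 receptors together received 9453 and 8777 counts in wild-type and 1827 and 1493 in TNFR2 KO. Duplicates were close, with a biological coefficient of variation of 3.33%, and 26.2% of all genes tested were lower and 24.2% higher in TNFR2 KO at an adjusted p under 0.05 alone. Nothing states that the pools came from different donors, so p-values measure only the spread between these libraries. Tnfrsf1b, the targeted gene encoding TNFR2, was at 264.7 and 268.6 CPM in wild-type and at 55.1 and 58.6 CPM in TNFR2 KO, with a log2-fold change of -2.23. Klra8, which encodes the Ly49H receptor used for sorting and was named after its values were seen, was at 313.3 and 315.9 CPM in wild-type and at 762.1 and 725.8 CPM in TNFR2 KO.

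All 9 Toll-like receptors and Myd88 were lower in the libraries of TNFR2 KO NK cells than in those of wild-type NK cells. The summed level of the 9 receptors was 249.2 and 238.1 CPM in wild-type and 47.2 and 46.6 CPM in TNFR2 KO, 5.19-fold lower in the KO. By edgeR's quasi-likelihood test, with p-values adjusted over all genes after Benjamini and Hochberg, 8 of the 10 genes were lower past both thresholds (an adjusted p under 0.05 with a log2-fold change beyond 1 in size), where 11.8% of all genes tested were, and 0 were higher, against 1.56% of all genes (also 0 with DESeq2, and 0 at an unadjusted p under 0.05). At the adjusted p alone all 10 were lower, against 26.2% of all genes. The median log2-fold change of the 10 genes was -2.86, beside a median over all genes tested of -0.003. In bulk RNA of this kind, fewer cells of a type and less RNA per cell cannot be told apart.

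**Figure D1:**
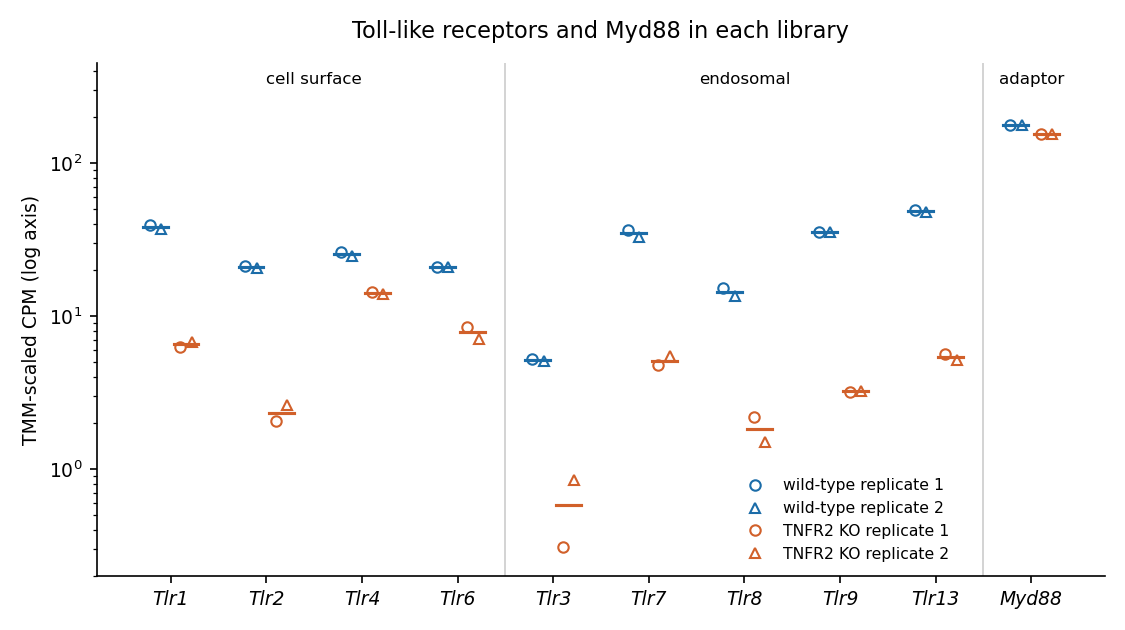
Level of each of the 10 genes in each library, as TMM-scaled CPM on a log axis. Circles are replicate 1, triangles replicate 2 and bars the mean of 2 libraries per genotype (blue, wild-type; orange, TNFR2 KO). The relative separation of the genotypes is narrowest for Myd88 (177.5 and 178 against 153.9 and 155.7 CPM) and widest for Tlr9 (35.5 and 35.3 against 3.18 and 3.25 CPM).

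Genes used as markers of other cell types also differed between the genotypes in the same libraries. Of 17 macrophage or monocyte markers tested, 15 were lower past both thresholds, where 11.8% of all genes tested were. Their median log2-fold change was -2.87, and the summed level of that list was 2869 to 2924 CPM in wild-type and 1282 to 1298 CPM in TNFR2 KO. Lyz2, the lysozyme of macrophages and monocytes, was at 771.5 and 777.7 CPM in wild-type and at 114.0 and 110.4 CPM in TNFR2 KO, and Mpeg1, a pore-forming protein of macrophages, fell from 637.7 and 607.1 CPM to 61.5 and 66.0 CPM. Which cells this RNA came from, and the part of macrophages or monocytes in the lower receptor levels, was not tested. The other 2 tested markers of that list were higher at the adjusted p alone, Ccr2 with a log2-fold change of 0.78 and Ly6c2 (named after its values were seen) of 0.26, which turned to -0.06 and -0.58 when scaled on NK cell markers. The 16 NK cell markers moved the other way, with a median log2-fold change of 0.84 and 5 higher past both thresholds, where 1.56% of all genes tested were.

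The 4 surface receptors summed to 107.8 and 103.1 CPM in wild-type and to 31.2 and 30.4 CPM in TNFR2 KO, 3.43-fold lower in the KO. Their log2-fold changes ran from -3.16 to -0.85, a wider range than that of the endosomal receptors. Tlr2, whose product pairs with TLR1 or TLR6 to bind bacterial lipopeptides, was at 21.1 and 20.5 CPM in wild-type and at 2.04 and 2.62 CPM in TNFR2 KO. This was the largest change at the cell surface, with a mean of 20.8 ± 0.435 CPM (SD, n = 2) against 2.33 ± 0.410 CPM and a log2-fold change of -3.16 ± 0.126 (standard error, SE, with edgeR adjusted p = 6.90e-10).

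Tlr1, the partner of TLR2 for triacylated lipopeptides, was at 39.5 and 36.9 CPM in wild-type and at 6.23 and 6.80 CPM in TNFR2 KO. Its log2-fold change was -2.56 ± 0.0759 (SE, edgeR adjusted p = 4.00e-11). Tlr6, the partner of TLR2 for diacylated lipopeptides, was at 20.9 CPM in both wild-type libraries and at 8.51 and 7.09 CPM in TNFR2 KO. Tlr6 differed less than Tlr1, with a log2-fold change of -1.42 ± 0.0988 (SE, edgeR adjusted p = 1.41e-07). When the counts of both genes were added, since a part of their reads cannot be assigned, the sum was 60.4 and 57.8 CPM in wild-type and 14.7 and 13.9 CPM in TNFR2 KO. The log2-fold change of this sum was -2.04 ± 0.0577 (SE, edgeR adjusted p = 2.44e-11), so the pair together was lower in TNFR2 KO however the shared reads were split.

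Tlr4, which binds lipopolysaccharide of Gram-negative bacteria, differed least among the receptors. Its level was 26.3 and 24.8 CPM in wild-type and 14.4 and 13.9 CPM in TNFR2 KO, with a log2-fold change of -0.85 ± 0.0699 (SE, edgeR adjusted p = 6.56e-07). Tlr4 passed the adjusted p alone, where 26.2% of all genes tested were lower, and not the threshold on the fold change. Its gap of 10.4 CPM between the groups was larger than the widest difference of 1.495 CPM between duplicates. The genes of its co-receptors, named after their values were seen, differed by unequal amounts. Cd14, which hands lipopolysaccharide to TLR4, was at 20.96 and 22.6 CPM in wild-type and at 2.71 and 2.03 CPM in TNFR2 KO, with a log2-fold change of -3.18. Ly96, which encodes the lipid-binding partner MD-2, was at 3.61 and 3.69 CPM in wild-type and at 2.33 and 2.28 CPM in TNFR2 KO, with a log2-fold change of -0.66 (adjusted p = 0.00939 from edgeR, and 0.0592 from DESeq2).

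The 5 endosomal receptors summed to 141.5 and 135.0 CPM in wild-type and to 16.1 and 16.2 CPM in TNFR2 KO, 8.56-fold lower in the KO. All 5 were lower past both thresholds, by 6.81-fold to 11.01-fold. Tlr9, a receptor for unmethylated CpG DNA that takes part in sensing of MCMV, was at 35.5 and 35.3 CPM in wild-type and at 3.18 and 3.25 CPM in TNFR2 KO. It showed the largest change of the 10 genes, from 35.4 ± 0.142 CPM (SD, n = 2) to 3.21 ± 0.0470 CPM, with a log2-fold change of -3.46 ± 0.0826 (SE, edgeR adjusted p = 4.49e-12).

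Tlr13, a receptor of mice for bacterial ribosomal RNA, had the highest CPM of the receptors before division by length, at 49.2 and 48.2 CPM in wild-type, and was at 5.64 and 5.18 CPM in TNFR2 KO. Its log2-fold change was -3.17 ± 0.0695 (SE, edgeR adjusted p = 2.14e-12), and the gap of 42.5 CPM between groups far exceeded the 1.03 CPM between duplicates. Tlr7, a receptor for single-stranded RNA, was at 36.3 and 33.01 CPM in wild-type and at 4.78 and 5.43 CPM in TNFR2 KO, with a log2-fold change of -2.77 ± 0.0888 (SE, edgeR adjusted p = 8.50e-11). Tlr8, its neighbour on chromosome X and closest relative, was at 15.2 and 13.5 CPM in wild-type and at 2.17 and 1.498 CPM in TNFR2 KO, with a log2-fold change of -2.95 ± 0.163 (SE, edgeR adjusted p = 1.57e-08). The 3 endosomal receptors encoded on chromosome X thus lay between -3.17 and -2.77 on the log2 scale. Those encoded on other chromosomes lay close by, Tlr3 at -3.20 and Tlr9 at -3.46.

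Tlr3, a receptor for double-stranded RNA that signals through the adaptor TRIF, had the lowest level of the 10 genes, in CPM and per length. It received 199 and 186 counts in wild-type and 12 and 27 counts in TNFR2 KO, or 5.25 and 5.05 CPM against 0.310 and 0.843 CPM. Both KO libraries lay below both wild-type libraries, but they differed from each other more than the duplicates of any other receptor did in relation to their level. The log2-fold change of Tlr3 was -3.20 ± 0.312 (SE, edgeR adjusted p = 3.29e-06), and it was -4.03 without TNFR2 KO replicate 2 and -2.59 without TNFR2 KO replicate 1.

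**Figure D2:**
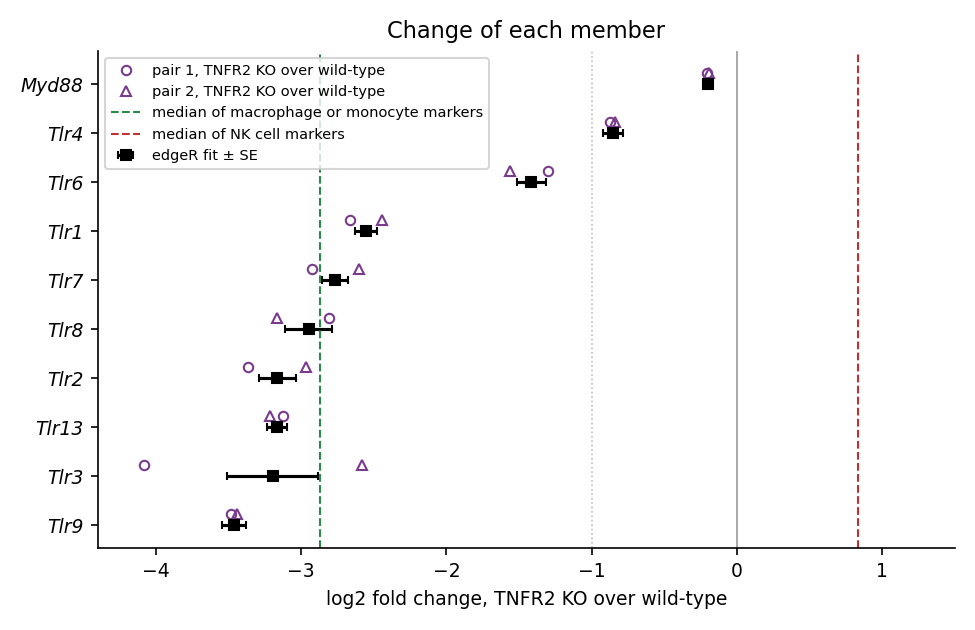
Log2-fold change of each gene, TNFR2 KO over wild-type. Black squares with bars are edgeR estimates ± standard error, purple symbols the ratio within each pair of libraries from the same pool, the dotted line a log2-fold change of -1, the green line the median of the macrophage or monocyte markers (-2.87) and the red line the median of the NK cell markers (0.84). Tlr9 lies lowest at -3.46, Tlr4 at -0.85 and Myd88 at -0.20 lie right of the dotted line, and the pair ratios are farthest apart for Tlr3 (-4.08 and -2.58).

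Myd88, the shared adaptor, was far more abundant than the receptors, also per length, and differed little between genotypes. It was at 177.5 and 178 CPM in wild-type and at 153.9 and 155.7 CPM in TNFR2 KO, or 177.8 ± 0.387 CPM (SD, n = 2) against 154.8 ± 1.31 CPM. The 1.15-fold lower level in the KO was a log2-fold change of -0.20 ± 0.0285 (SE, edgeR adjusted p = 8.94e-05) and did not reach the threshold on the fold change. The gap of 21.8 CPM between groups was larger than the 1.85 CPM between duplicates, and the ratio was alike in both pairs, at -0.21 and -0.19 on the log2 scale. Such a separation was common in these libraries, as 26.2% of all genes tested were lower and 24.2% higher at the adjusted p alone. Myd88 made up 41.6% and 42.8% of the summed CPM of the 10 genes in wild-type and 76.5% and 77.0% in TNFR2 KO. With counts scaled on the 16 NK cell markers in place of all genes, the log2-fold change of Myd88 was -1.04, past both thresholds. That scaling moved the median of all genes to -0.84. Relative to this median Myd88 was at -0.20, which returns the main value by construction, since a change of scaling moves all genes by nearly the same amount.

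Levels of the 10 genes were compared with each other per length, as TMM-scaled CPM per kilobase of the longest coding transcript. In wild-type, Myd88 was at 90.6 to 90.8 CPM per kilobase and the receptors followed in the order Tlr1 (12.2 to 13.1), Tlr13 (11.9 to 12.1), Tlr9 (10.1 to 10.2), Tlr7 (8.47 to 9.32), Tlr2 (6.79 to 6.99), Tlr4 (6.08 to 6.45), Tlr6 (5.68 to 5.69), Tlr8 (3.93 to 4.43) and Tlr3 (1.14 to 1.19). No neighbours in this order had overlapping duplicates. In TNFR2 KO, Myd88 was at 78.5 to 79.5 CPM per kilobase, and Tlr4 moved up to the second place with 3.41 to 3.53. Then came Tlr1 (2.06 to 2.25) and Tlr6 (1.93 to 2.31), whose duplicates overlapped, Tlr13 (1.28 to 1.39) and Tlr7 (1.23 to 1.39), whose duplicates overlapped too, and Tlr9 (0.914 to 0.933), Tlr2 (0.678 to 0.870), Tlr8 (0.437 to 0.633) and Tlr3 (0.0704 to 0.191). These ranges cover 2 libraries each and carry no test, and the places of Tlr1 and Tlr6 also depend on how their shared reads were split. Tlr12, a receptor outside the 10 genes, was at 4.44 to 4.70 CPM per kilobase in wild-type. In TNFR2 KO it was at 2.56 to 2.78, above Tlr1 and Tlr6.

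The other 3 mouse Toll-like receptors of the table were lower in TNFR2 KO as well, 2 of them past both thresholds. Tlr12, which with TLR11 detects profilin of protozoa, was at 14.1 and 14.9 CPM in wild-type and at 8.12 and 8.83 CPM in TNFR2 KO, with a log2-fold change of -0.78 that passed the adjusted p alone (3.77e-05 from edgeR). Tlr11 was at 2.50 and 2.71 CPM in wild-type and at 0.259 and 0.375 CPM in TNFR2 KO, with a log2-fold change of -3.05. Tlr5, the receptor for flagellin, was at 0.712 and 0.597 CPM in wild-type and at 0.0517 and 0.0624 CPM in TNFR2 KO. Tlr5 and Tlr11 reached the filter's floor in wild-type only, so they could enter the test only through the group in which they were higher.

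The proteins that carry Toll-like receptors to their place were examined in a list of 15 co-receptor and trafficking genes, of which 7 were lower past both thresholds, 4 more were lower at the adjusted p alone and 4 did not pass. Of the 7, Lbp, a plasma protein that transfers lipopolysaccharide and was named after its values were seen, reached the filter's floor in wild-type only, at 2.45 and 1.65 CPM against 0.155 and 0.0936 CPM. The median log2-fold change of the list was -0.81, beside -2.86 for the 10 genes. For comparison with this list and those below, 11.8% of all genes tested were lower and 1.56% higher past both thresholds. At the adjusted p alone, those genes included, 26.2% were lower and 24.2% higher. Unc93b1, the escort of endosomal Toll-like receptors, fell from 153.5 and 155.0 CPM in wild-type to 53.8 and 56.5 CPM in TNFR2 KO (log2-fold change -1.48, adjusted p = 6.34e-12 from edgeR). Lgmn, a lysosomal protease that takes part in cleaving endosomal receptors, fell from 119.2 and 120.2 CPM to 17.0 and 17.5 CPM (log2-fold change -2.80, adjusted p = 1.52e-13 from edgeR). Cd180, a Toll-like receptor homologue that restrains TLR4, fell from 69.2 and 61.2 CPM to 6.13 and 6.96 CPM (log2-fold change -3.32, adjusted p = 7.25e-12 from edgeR). Ly86, which encodes the partner MD-1 of the CD180 protein and was named after its values were seen, showed a log2-fold change of -2.93.

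The list also holds chaperones of Toll-like receptors. Hsp90b1, the chaperone gp96 of the endoplasmic reticulum, was at 1369 and 1333 CPM in wild-type and at 1227 and 1211 CPM in TNFR2 KO (log2-fold change -0.15, adjusted p = 0.000140 from edgeR). Its co-chaperone Cnpy3, named after its values were seen, was at 46.1 and 45.9 CPM in wild-type and at 26.7 and 25.9 CPM in TNFR2 KO, with a log2-fold change of -0.81. Hmgb1, a nuclear protein that can bind nucleic acids for TLR9, was at 407.0 and 411.7 CPM in wild-type and at 423.0 and 391.2 CPM in TNFR2 KO, and did not pass the test (adjusted p = 0.878 from edgeR). Its groups overlapped.

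Among 10 further adaptors and IRAK kinases, 2 were lower past both thresholds, 4 were higher at the adjusted p alone and 4 did not pass, with a median log2-fold change of 0.08. Irak3, which encodes the inhibitory kinase IRAK-M of macrophages and monocytes, was at 13.4 and 12.97 CPM in wild-type and at 1.71 and 1.94 CPM in TNFR2 KO (log2-fold change -2.86, adjusted p = 4.17e-09 from edgeR). Ticam2, the bridging adaptor TRAM of TLR4, was at 7.07 and 6.46 CPM in wild-type and at 1.76 and 1.25 CPM in TNFR2 KO (log2-fold change -2.15, adjusted p = 1.29e-06 from edgeR), and 15.8% of its 31-base stretches occurred in Tmed7. Irak1, a kinase of the complex that MyD88 assembles, was at 136.7 and 136.9 CPM in wild-type and at 147.6 and 151.9 CPM in TNFR2 KO, with a log2-fold change of 0.13 that turned to -0.71 when scaled on NK cell markers. Pik3ap1, a signalling adaptor that links receptors to PI3K, was at 281.3 and 275.9 CPM in wild-type and at 279.1 and 287.3 CPM in TNFR2 KO and did not pass the test (adjusted p = 0.524 from edgeR).

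Of the 22 genes of the relay from TRAF6 to the kinases, 1 was lower past both thresholds, 2 more were lower and 3 higher at the adjusted p alone, and 16 did not pass, with a median log2-fold change of 0.04. The gene past both thresholds was Peli2, a ubiquitin ligase of the IRAK complex, at 1.397 and 1.11 CPM in wild-type and at 0.129 and 0.156 CPM in TNFR2 KO, which also entered the test through wild-type only. Tab2, an adaptor of the kinase TAK1, was at 214.0 and 211.1 CPM in wild-type and at 221.9 and 220.4 CPM in TNFR2 KO (adjusted p = 0.0996 from edgeR). Ube2v1, a partner of the ubiquitin-conjugating enzyme that works with TRAF6, was at 198.8 and 183.4 CPM in wild-type and at 189.3 and 210.7 CPM in TNFR2 KO (adjusted p = 0.304 from edgeR). The groups of Ube2v1 overlapped, and 66.2% of its 31-base stretches occurred in other genes.

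The transcription factors at the end of the pathway moved in both directions. Of 6 IRF and related genes, 2 were lower past both thresholds, 2 more were lower and 2 higher at the adjusted p alone, with a median log2-fold change of -0.31. Irf7, the inducible interferon factor downstream of TLR7 and TLR9, fell from 318.4 and 323.1 CPM in wild-type to 128.5 and 124.3 CPM in TNFR2 KO (log2-fold change -1.34, adjusted p = 1.96e-12 from edgeR). Irf5, an IRF of myeloid and B cells downstream of MyD88, fell from 70.0 and 73.1 CPM to 23.9 and 23.2 CPM (log2-fold change -1.60, adjusted p = 6.31e-11 from edgeR). Irf1, an interferon-induced factor, was at 399.1 and 402.0 CPM in wild-type and at 319.1 and 331.6 CPM in TNFR2 KO, with a log2-fold change of -0.30. Irf8, which NK cells and dendritic cells use, was at 386.2 and 396.9 CPM in wild-type and at 589.4 and 596.4 CPM in TNFR2 KO, with a log2-fold change of 0.60 (adjusted p = 1.08e-09 from edgeR) that turned to -0.24 when scaled on NK cell markers.

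Among 10 negative regulators, 1 was lower past both thresholds, 3 more were lower and 5 higher at the adjusted p alone, and 1 did not pass, with a median log2-fold change of 0.05. Dok3, an inhibitory adaptor of macrophages and B cells, fell from 25.5 and 25.3 CPM in wild-type to 3.08 and 4.93 CPM in TNFR2 KO (log2-fold change -2.69, adjusted p = 1.47e-08 from edgeR). Tnfaip3, the ubiquitin-editing enzyme A20, was at 206.6 and 201.6 CPM in wild-type and at 217.6 and 222.7 CPM in TNFR2 KO, with a log2-fold change of 0.11 (adjusted p = 0.00730 from edgeR) that turned to -0.73 when scaled on NK cell markers. Cyld, a deubiquitinase, had overlapping groups at 147.6 and 147.1 CPM against 148.2 and 144.1 CPM.

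The receptors of the IL-1 family also signal through MyD88. None of the 6 genes of this list passed both thresholds, while 2 were lower and 1 higher at the adjusted p alone and 3 did not pass, with a median log2-fold change of -0.20. Il18rap, the accessory chain of the IL-18 receptor, was at 418.2 and 397.8 CPM in wild-type and at 539.7 and 550.6 CPM in TNFR2 KO, with a log2-fold change of 0.42 (adjusted p = 1.10e-07 from edgeR) that turned to -0.42 when scaled on NK cell markers. Il18r1, the binding chain, was at 271.2 and 267.9 CPM in wild-type and at 279.4 and 277.8 CPM in TNFR2 KO and did not pass the test (adjusted p = 0.148 from edgeR). Over all 72 genes of these lists, 15 were lower and 0 higher past both thresholds, with DESeq2 as with edgeR, and the median log2-fold change was -0.01, whereas it was -2.86 for the 10 genes. Of the 15, Tlr5, Tlr11, Lbp and Peli2 passed the filter through wild-type only and so had to be lower if called, and the share of all genes tested that was lower past both thresholds was 11.8%. The highest log2-fold change in these lists was 0.60, short of the threshold on the fold change. The count of lower genes was 29 when scaled on NK cell markers, and 8 of the 61 genes of at least 10 CPM on average.

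**Figure D3:**
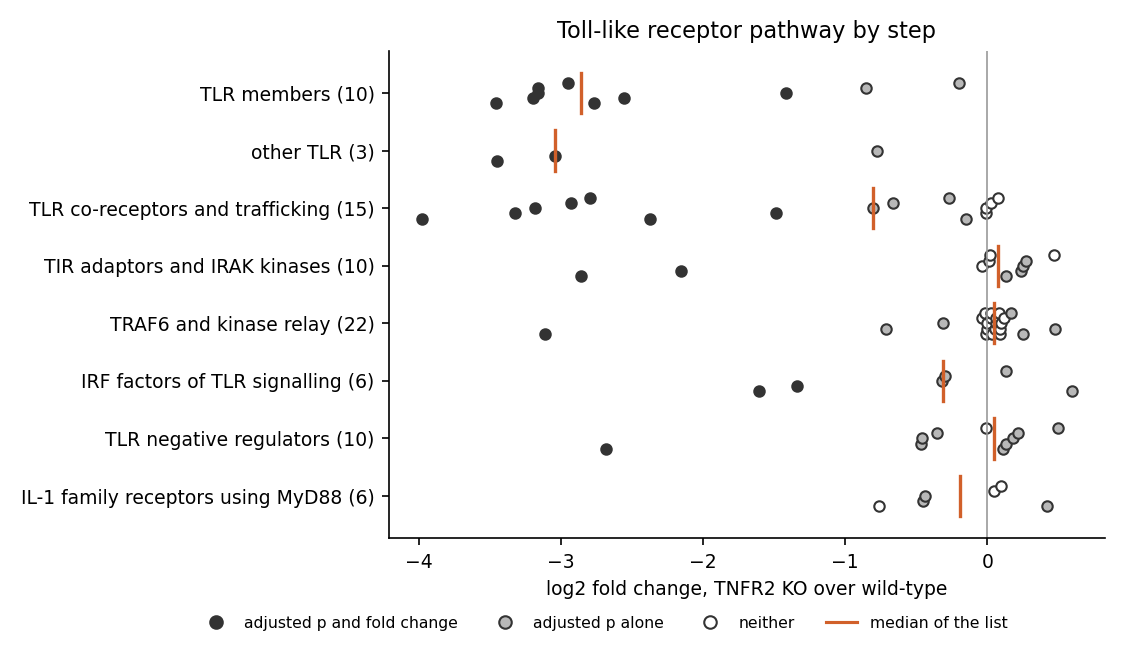
Log2-fold change, TNFR2 KO over wild-type, of each gene of the Toll-like receptor pathway, by step, with the number of genes in brackets. Filled points passed both thresholds, grey points the adjusted p alone, open points neither, and the orange line is the median of each list. The lists of receptors and of their co-receptors spread to the left (medians -2.86, -3.05 and -0.81), while the medians of the other lists lie between -0.31 and 0.08.

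The genes whose pattern over the 4 libraries was nearest to that of Tlr13, the receptor of highest CPM, were Alox5ap, Wdfy3 and Fcgr4, by the Euclidean distance between centred log2(CPM + 0.5) values (0.00997, 0.0437 and 0.0623) among genes of at least 10 CPM on average. Alox5ap, the activating protein of leukotriene synthesis in myeloid cells, was at 56.9 and 55.8 CPM in wild-type and at 6.64 and 6.06 CPM in TNFR2 KO. Fcgr4, an Fc receptor of macrophages and neutrophils, was at 71.7 and 67.5 CPM in wild-type and at 8.30 and 7.93 CPM in TNFR2 KO. Wdfy3, a scaffold protein of selective autophagy, was at 19.4 and 18.9 CPM against 1.86 and 1.75 CPM. The genes nearest to Myd88 were Prps1, Rab5if and Tcp1 (distances of 0.00294, 0.00896 and 0.0112), of which Tcp1, a subunit of a cytosolic chaperonin, was at 342.7 and 340.4 CPM in wild-type and at 295.6 and 298.0 CPM in TNFR2 KO. With 4 libraries of 2 groups, such distances hold little more than the difference between genotypes. The log2-fold changes of Tlr13 (-3.17) and Myd88 (-0.20) were far apart, so that their lists of nearest genes could hardly share a gene, and they shared none.

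The summed levels of the other cell type lists are given beside the receptors, since cells of several of these types express Toll-like receptors. Of all genes tested, 11.8% were lower and 1.56% higher past both thresholds. All 11 neutrophil or precursor markers were lower past both thresholds, with a median log2-fold change of -2.28 and sums of 869.3 and 883.7 CPM in wild-type and 98.1 and 94.8 CPM in TNFR2 KO, and Mpo (log2-fold change -6.50), S100a9 (-2.22) and Ngp (-2.66) had the highest CPM among them. All 8 mast cell or basophil markers were lower, with a median log2-fold change of -5.45 and sums of 1250.2 and 1245.5 CPM against 28.3 and 27.0 CPM, led by Prss34 (-6.18), Mcpt8 (-5.57) and Cpa3 (-5.41). In these lists the neutrophil marker Elane (0.103 and 0.406 CPM in TNFR2 KO) and the basophil marker Cd200r3 (0.543 and 0.187 CPM) reached the filter's floor in both libraries of wild-type only. Both could enter the test only through the group in which they were higher. All 6 erythroid markers were lower, with sums of 250.9 and 252.1 CPM against 51.2 and 51.7 CPM, led by Hba-a1 (-2.39), Hbb-bs (-2.32) and Hbb-bt (-2.07). Within the macrophage or monocyte list Ccr2, a chemokine receptor that NK cells also express, was at 403.5 and 384.0 CPM in wild-type and at 686.6 and 669.7 CPM in TNFR2 KO, with a log2-fold change of 0.78 that was -0.06 when scaled on NK cell markers. Vsig4 of that list had at most 0.0312 CPM in any library and was not tested.

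The lists of dendritic cells and lymphocytes differed less or in both directions. Of 8 conventional dendritic cell markers tested, 4 were lower and 1 higher past both thresholds, with sums of 732.6 and 729.8 CPM in wild-type and 913.7 and 941.6 CPM in TNFR2 KO. Of the 4, Clec9a (0.233 and 0.281 CPM in TNFR2 KO) reached the filter's floor in both libraries of wild-type only. The list was dominated by Itgax (log2-fold change 1.11), which NK cells also express, and by the class II gene H2-Ab1 (-3.49), while Zbtb46 (-0.04) did not pass the test. None of 6 plasmacytoid dendritic cell markers tested passed both thresholds, with sums of 24.9 and 27.7 CPM against 19.5 and 20.4 CPM and values of -0.37 for Tcf4, -0.70 for Pacsin1 and -0.20 for Ccr9. Of 8 B cell markers only Cd22 (0.91) and Cd79b (-0.65) were tested, with Cd79a at 0.218 CPM or less in any library. T cell markers summed to 975.1 and 961.2 CPM against 841.9 and 847.3 CPM, with values of -0.56 for Cd4, 0.10 for Cd3g and 0.06 for Cd28. NK cell markers summed to 14264 and 14174 CPM in wild-type and 27261 and 26947 CPM in TNFR2 KO, and of those of highest CPM Gzma (1.08) stayed higher at 0.24 when scaled on this list, whereas Gzmb (0.75) and Prf1 (0.83) turned to -0.09 and -0.01. The part of each of these cell types in the levels of the 10 genes was not tested.

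**Figure D4:**
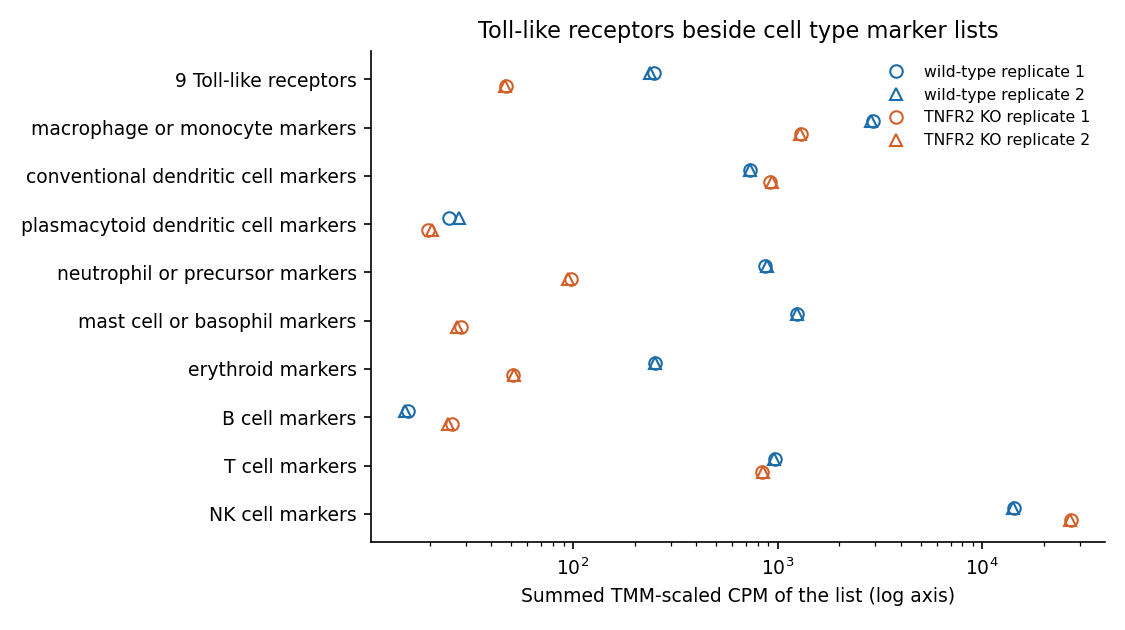
Summed TMM-scaled CPM, on a log axis, of the 9 Toll-like receptors and of each list of cell type markers in each library (circles, replicate 1; triangles, replicate 2; blue, wild-type; orange, TNFR2 KO). The receptors lie at 249.2 and 238.1 CPM in wild-type and at 47.2 and 46.6 CPM in TNFR2 KO, the macrophage, neutrophil, mast cell and erythroid lists lie lower in TNFR2 KO, and the NK cell list lies higher.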

How the data were processed

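Bulk RNA of 4 libraries was analysed, 2 of wild-type and 2 of TNFR2 KO NK cells, grouped by the sample titles. According to the study's methods and the submitters' processing notes, the authors prepared poly-A enriched, stranded paired-end libraries, trimmed the reads with Trimmomatic (version 1.4), assigned them to transcripts of mm10 with kallisto (version 0.46.1) and collapsed transcripts to genes with Tximport. The deposited values are these estimated counts (expected counts), listed by gene symbol and not scaled between libraries. No source at hand names the transcript annotation. Reads of near-identical copies are split by such an assignment according to the likelihood of each transcript, which bears on Tlr1 and Tlr6.

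Estimated counts were rounded to whole numbers. A row without a gene name, with 0.056% to 0.073% of the counts, was left out. With 35798 named genes, edgeR 4.0.16 in R 4.3.3 kept 13822 (filterByExpr), and its quasi-likelihood test was run on TMM-scaled counts with a single term for genotype, with p-values adjusted over all genes tested after Benjamini and Hochberg. Calls needed an adjusted p under 0.05 with a log2-fold change beyond 1 in size, which are the study's thresholds, and calls at the adjusted p alone are given beside them. CPM values are TMM-scaled, SDs cover 2 libraries, and a negative log2-fold change means lower in TNFR2 KO. The smallest two-sided p of an exact permutation test is 0.333 for groups of 2, so no such test was used. Counts of duplicates differed by a mean chi-square of 3.36 (wild-type) and 3.58 (TNFR2 KO), where sampling noise of plain counts gives a value near 1. These are estimated counts, and the splitting of ambiguous reads can raise this value too. It therefore cannot settle how separately the duplicates were made.

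By their labels, wild-type and KO libraries of one number were sorted from one pool of spleens, so the numbers pair the samples, and across genes a correlation of 0.0487 was found between their deviations from the group means. The fit with this block is an alternative.

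The 10 genes, the pathway and marker lists and the tests were chosen with earlier results of these data known. Named genes are the 10 genes, the targeted gene, the other Toll-like receptors, in each pathway list the 3 genes of smallest adjusted p past both thresholds in each direction and the 2 of highest mean CPM, in each marker list the 3 of highest mean CPM, and the 3 genes most like Myd88 and most like the receptor of highest CPM. Cd14, Ly96, Ly86, Cnpy3, Klra8, Lbp and Ly6c2 were chosen once their values had been seen. The alternatives tried were DESeq2 1.42.0, 4 other scalings (DESeq2's size factors, upper quartile, library size alone and the 16 NK cell markers), no filter, a filter at a mean of 10 CPM, the replicate block, each library left out in turn and, chosen after seeing the data, the counts of Tlr1 and Tlr6 summed. Positions and shared 31-base stretches come from GENCODE release 21 on GRCm38, which stands in for the annotation of the authors, and promoter windows from RefSeq (GRCm38.p6). The edgeR and DESeq2 steps were tested on simulated data. Figures were drawn with matplotlib 3.10.9.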

Additional observations from a re-analysis of the deposited data

How the results depend on the processing

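Over 12 alternatives, the 10 genes gave 118 values, each of the same direction and on the same side of the adjusted p threshold. Past both thresholds, 8 of the 10 were lower under DESeq2, the other scalings, no filter, the replicate block and with each library left out, except that 10 of 10 were lower when scaled on NK cell markers and 6 of the 8 that remained at a mean of at least 10 CPM. None was higher. Summing Tlr1 and Tlr6, chosen after seeing the data, gave 7 of 9. The replicate block, that is the pairing of libraries from the same pool, left 8 of the 10 and 15 pathway genes lower, called 1616 genes lower and 214 higher among all genes, and changed no call of a named gene. The 15 pathway genes became 29 when scaled on NK cell markers, 8 at a mean of at least 10 CPM, where 61 of 72 were tested, and 15 to 16 with each library left out. The NK cell scaling moved the median of all genes from -0.003 to -0.84 and the calls from 1627 lower and 215 higher (88.3% lower) to 4312 and 27 (99.4% lower). All-gene calls were 1446 lower and 157 higher with DESeq2, and 424 and 56 of 8765 genes at a mean of at least 10 CPM.

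The other 64 named genes gave 757 values, of which 716 kept their direction and call, 10 lost the call, 6 gained it and 25 changed sign. Signs changed when scaled on NK cell markers for Pik3ap1 (-0.82), Irak1 (-0.71), Tab2 (-0.78), Ube2v1 (-0.78), Irf8 (-0.24), Tnfaip3 (-0.73), Il18rap (-0.42), Il18r1 (-0.79), Ccr2 (-0.0563), Ly6c2 (-0.58), Cd3g (-0.74), Cd28 (-0.78), Gzmb (-0.0860) and Prf1 (-0.00635), as that scaling sets the median of those markers near 0 by construction. Library size alone gave -0.0379 for Pik3ap1, -0.00374 for Tab2, -0.0133 for Il18r1 and -0.00344 for Cd28, the upper quartile gave 0.00159 for Hmgb1, and a mean of at least 10 CPM gave -0.0132 for Pik3ap1. The cause of these was not tested. With each library left out, values ran from -0.0550 to 0.0521 for Hmgb1, -0.00865 to 0.151 for Ube2v1, -0.0222 to 0.0128 for Cyld and -0.136 to 0.0772 for Zbtb46. Where 1 library was left alone in a group it was assumed to vary like the other group. Among the 10 genes, Tlr3 rests on the fewest counts (12 and 27 in TNFR2 KO).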
